A study of Mus musculus with 2 samples.

Results

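Type B intercalated cells with pendrin were examined in single-cell RNA-Seq libraries of injured mouse kidneys. The cells were chosen by counts of unique molecular identifiers (UMIs, each standing for 1 captured RNA molecule): at least 3 of Atp6v1g3, at least 1 of Foxi1, at least 2 of Slc26a4 and more of Slc26a4 than of Slc4a1, with none of the leukocyte gene Ptprc. Of 16593 barcodes kept, 269 met this gate, 122 of 7941 in the Cre- library and 147 of 8652 in the PHDTiEC library. A barcode was kept with 1000 to 100000 UMIs, at least 200 genes, no more than 50% of UMIs from mitochondrial genes, and a complexity (log10 of its genes divided by log10 of its UMIs) no lower than 0.8.

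Each library came from the kidney of 1 mouse on day 14 after unilateral renal ischemia-reperfusion injury (IRI) made by clamping the renal artery for 25 minutes. The PHDTiEC mouse carried Cdh5-CreERT2, a tamoxifen-inducible Cre driven by the endothelial Cdh5 promoter, together with the floxed alleles Phd1f/f, Phd2f/f and Phd3f/f of the 3 prolyl-4-hydroxylase domain oxygen sensors, and the control was a Cre- littermate. Both were males of 8 to 10 weeks that received 4 tamoxifen injections of 3 mg from day 1 after IRI, so injury and tamoxifen were shared and the floxed genes were not targeted in tubule cells. With 1 mouse a group, genotype, mouse and library cannot be told apart, no test between genotypes was possible, and every interval below is a 95% interval of counting error only, which leaves out the spread among mice and among cells.

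Intercalated cells are the acid-base cells of the connecting tubule and collecting duct, set among principal cells that handle sodium and water. Foxi1 is the forkhead transcription factor on which intercalated identity depends, and Atp6v1g3 encodes a subunit of the proton pump (V-ATPase) that these cells carry in quantity. Type A cells secrete acid and return bicarbonate to blood through the exchanger AE1, product of Slc4a1. Type B cells secrete bicarbonate in exchange for luminal chloride through pendrin, product of Slc26a4, and so take part in defence against alkalosis and in chloride balance.

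Because Foxi1 and Atp6v1g3 entered the gate, the promoters of a gate gene and of the pump subunit are shown for forkhead core letters. The searched letters, chosen after the sequences had been read, were TGTTTA and TGTTTG with their reverse complements TAAACA and CAAACA. RefSeq promoter entries (250 bases before to 50 after the transcript start, GRCm38.p6) matched 5 of 7 symbols looked up, namely Slc26a4, Atp6v1g3, Foxi1, Hmx2 and Avpr1a, and had no entry for Insrr or Slc4a1. In the sequences below, 5′ to 3′ on the strand of the gene, capitals mark a match. The Slc26a4 lines are chr12:31559985-31560234 before the start and chr12:31559940-31559969 around a match 27 bases after it, both on the minus strand, and the Atp6v1g3 line is chr1:138273488-138273737 on the plus strand.
Slc26a4 before the start: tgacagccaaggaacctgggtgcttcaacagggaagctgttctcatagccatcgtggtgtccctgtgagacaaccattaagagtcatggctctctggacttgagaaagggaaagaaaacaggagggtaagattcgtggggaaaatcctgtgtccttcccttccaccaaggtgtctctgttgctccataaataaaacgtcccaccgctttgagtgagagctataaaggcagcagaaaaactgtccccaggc
Slc26a4 after the start: aactccggagccCAAACAggtgagtttatc
Atp6v1g3 before the start: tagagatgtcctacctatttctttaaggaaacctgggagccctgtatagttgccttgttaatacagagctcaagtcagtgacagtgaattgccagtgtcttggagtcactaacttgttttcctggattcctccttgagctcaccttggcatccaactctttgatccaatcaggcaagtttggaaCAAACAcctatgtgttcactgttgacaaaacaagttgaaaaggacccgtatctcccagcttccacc
Slc26a4 and Atp6v1g3 held 1 match each, Hmx2 held 1 in 1 of its 2 entries, and Foxi1 and Avpr1a held none. Among 32851 promoters of this length 28.2% held any of these letters, so a match here is a description of the window and no site.

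The libraries held 136004367 (Cre-) and 146758812 (PHDTiEC) UMIs over all barcodes. Type B members were deep, with a median of 37770 UMIs (3620 to 86982) in Cre- and 39558 (4786 to 95137) in PHDTiEC, against medians of 8041 and 8452.5 over all kept barcodes. The median mitochondrial share of a member was 8.64% in Cre- and 5.94% in PHDTiEC. No type B barcode occurred as a type B barcode in both libraries. A doublet caller marked no member in either library, but it marked only 1.18% of Cre- and 0% of PHDTiEC barcodes, with 8% expected. Of simulated doublets 18.3% passed its threshold in Cre- and 0.491% in PHDTiEC. It therefore had not worked in the PHDTiEC library and missed most simulated doublets in Cre-. The median score was 0.072 and 0.079 in members and 0.046 and 0.045 over kept barcodes.

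Atp6v1g3 at 3 or more was met by 591 and 566 barcodes (Cre- and PHDTiEC, the order used throughout), Foxi1 left 520 and 515, absence of Ptprc left 287 and 268, and Slc26a4 at 2 or more left 126 and 151. Just inside the Slc26a4 threshold, 6 and 7 members held exactly 2 UMIs, while 12 and 16 barcodes with 1 Slc26a4 UMI and no Slc4a1 fell just outside. No barcode fell outside through 1 or 2 Atp6v1g3 UMIs, and 11 and 5 did so for lack of Foxi1. A further 118 and 121 barcodes met every other criterion but held a Ptprc UMI. These barcodes were deeper than the members (medians 59730.5 and 58473 UMIs), and their Slc26a4 level, 336 and 332 counts per 1000000 summed UMIs (CPM), stood below that of the members.

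**Figure D1:**
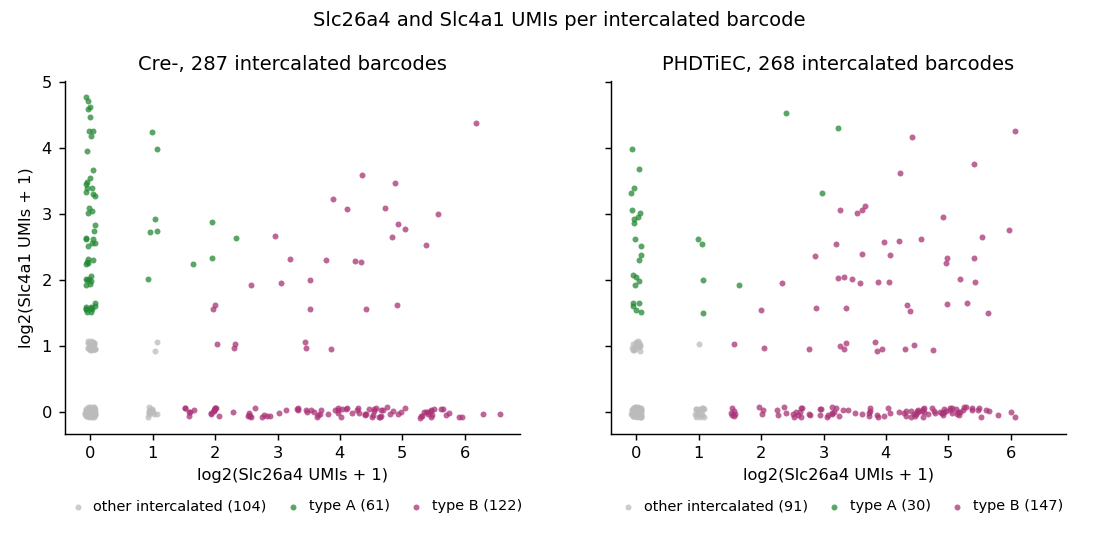
Each point is 1 intercalated barcode (Atp6v1g3 at 3 or more, Foxi1 at 1 or more, no Ptprc), placed by log2(Slc26a4 UMIs + 1) on the x axis and log2(Slc4a1 UMIs + 1) on the y axis with a small sideways shift so that equal counts can be seen; type B (122 and 147), type A (61 and 30) and other intercalated barcodes (104 and 91) are coloured apart. Most type B points lie along the bottom with no Slc4a1, and 30 and 50 of them rise off it.

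Pendrin itself, the gene that chose the cells, varied widely among them. Slc26a4 (ENSMUSG00000020651, chromosome 12, 31519827 to 31559969, minus strand, mm10) had 27.4 CPM in the lowest Cre- member, 397 at the median and 3143 in the highest. In PHDTiEC the lowest, median and highest members had 52.5, 436 and 2970 CPM. The distributions overlapped almost entirely. Summed over members the level was 508 and 488 CPM, a log2 ratio of PHDTiEC over Cre- of -0.06 (-0.14 to 0.02), given as a description because the gate used this gene.

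Markers that the gate did not use were checked against type A cells, defined by at least 2 Slc4a1 UMIs and more Slc4a1 than Slc26a4 UMIs under the same other criteria (61 and 30 barcodes), and against principal cells (43 and 68 barcodes), in which the intercalated genes should be lacking. Principal cells were taken as barcodes with at least 3 UMIs each of Aqp2 and Fxyd4 and none of Atp6v1g3, Foxi1 or Ptprc, so barcodes that had taken up RNA of the gate genes were left out of this background. To compare shares, each barcode was thinned to 5000 UMIs, which left out 2 members in each library. Insrr, the alkali-sensing insulin receptor-related receptor, was then seen in 40% (31.2 to 49.3) and 35.9% (28.1 to 44.2) of type B members. It was seen in 0 and 3.33% of type A and in 0 and 1.54% of principal cells, and unthinned in 79.5% and 85.0% of type B members. Hmx2, a homeobox transcription factor, was seen after thinning in 56.7% and 57.2% of type B members, in 3.33% and 16.7% of type A and in 2.33% and 0% of principal cells. These shares stood far above those of the principal cells, whose median depths before thinning were 13262 and 16728.5 UMIs.

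Avpr1a, the V1a vasopressin receptor and the other marker named for these cells, did not separate type B from type A in the Cre- library. After thinning it was seen in 34.2% and 33.1% of type B members, and in 35.0% and 16.7% of type A. Its summed level in type B over type A was -0.43 on the log2 scale in Cre- (-0.68 to -0.17) and 0.79 in PHDTiEC (0.31 to 1.31). The name type B was kept on Insrr and Hmx2, with this exception.

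Across the transcriptome, 9271 genes had enough UMIs in type B and type A together. Of these, 79 were more than 2-fold higher in type B in both libraries, 0.852% of the genes compared, and 23 were more than 2-fold lower, 0.248%. Apart from the gate gene Slc26a4, Insrr was among the genes set highest, at 90.6 against 3.92 CPM in Cre- and 82.8 against 12.7 CPM in PHDTiEC (log2 ratios 4.53 and 2.70). Hmx2 had 311 against 3.36 CPM in Cre- and 218 against 76.3 CPM in PHDTiEC. In the type A class of PHDTiEC, Hmx2 rested on 78 UMIs in 5 cells, 47.4% of them in 1 cell.

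Other genes set high in type B were less familiar as markers. Sh2d4b, an SH2-domain adaptor gene, was higher by 3.14 and 3.30 on the log2 scale, Thsd7a, a thrombospondin-domain membrane protein, by 2.78 and 3.13, and Myo5a, an unconventional myosin, by 2.76 and 3.51. Chl1, a cell adhesion molecule, was higher by 2.72 and by 4.80, the latter against 1 UMI in type A (2.30 to 10.1). Coch, which encodes cochlin, showed 5.10 (3.23 to 8.16) and 5.74 (3.25 to 11.05) against 2 and 1 UMIs in type A. It was seen in 18.9% and 25.2% of type B members, and the most loaded member held 43 and 69 UMIs, so Coch marked a minority of them strongly. Dll1, a Notch ligand, was higher in type B by 1.86 and 1.87, and Jag1, another, by 1.16 and 0.79.

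The named type B exchangers were less exclusive than Insrr. Slc4a9, the basolateral anion exchanger AE4, stood only 0.53 and 0.54 above type A on the log2 scale, and Slc4a8, a sodium-driven chloride/bicarbonate exchanger, stood at -0.13 and 0.15. Spink8, a serine protease inhibitor gene, was higher than in type A by 1.08 and 1.06, but principal cells held 589 and 822 CPM of it against 707 and 754 CPM in type B, and after thinning it was seen in 76.7% and 83.1% of principal cells and in 80.8% and 82.1% of type B members. In the other direction, Aqp6, the aquaporin of acid-secreting intercalated cells, was lower in type B (log2 ratios -2.34 and -2.04), as were Kit, a receptor tyrosine kinase (-2.27 and -1.51), Dmrt2, a transcription factor (-1.62 and -1.73), and Mme, a membrane metallopeptidase (-2.05 and -1.90).

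**Figure D2:**
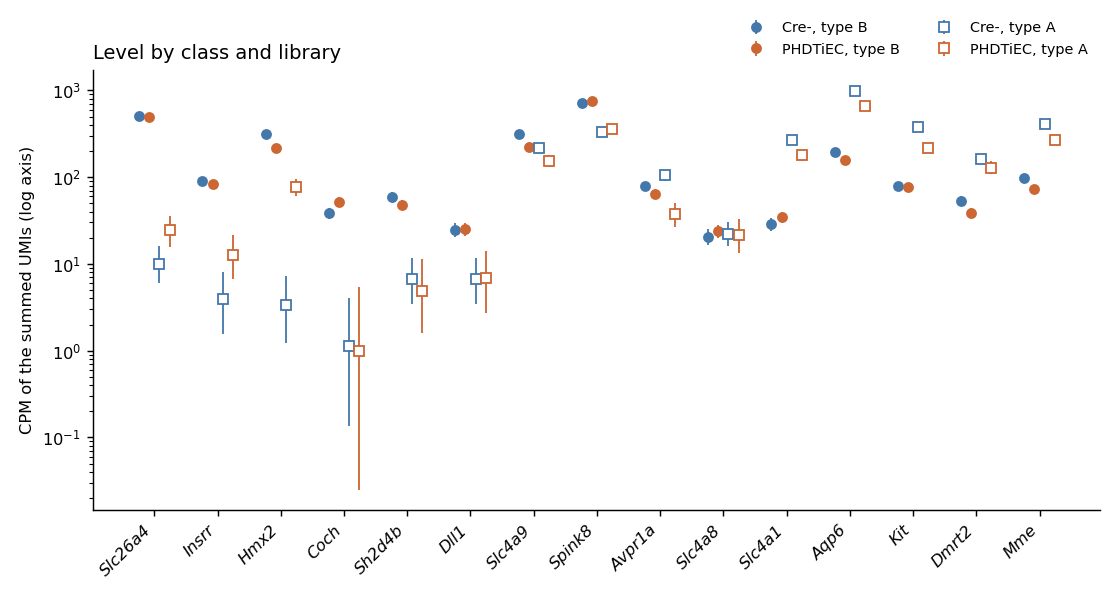
Level of 15 genes in type B (filled circles) and type A (open squares) barcodes of the Cre- (blue) and PHDTiEC (orange) libraries, as CPM of the summed UMIs on a log axis, with bars for the 95% Poisson interval. Insrr, Hmx2, Coch, Sh2d4b and Dll1 lie higher in type B in both libraries, Avpr1a and Slc4a8 lie close together or change order, and Aqp6, Kit, Dmrt2 and Mme lie lower.

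Many members carried type A genes beside pendrin. Slc4a1 was present in 30 of 122 and 50 of 147 members, and at 2 or more UMIs in 24 and 38. Aqp6 was at 2 or more UMIs in 47 and 66 members, which were deeper (medians 54804 and 53625 UMIs) than the 75 and 81 members with 0 or 1 (30019 and 28636). In the members with Aqp6, Slc4a1 stood at 55.8 and 62.5 CPM against 0.834 and 1.10 CPM in those without, and Dmrt2 at 95.2 and 61.3 against 10.0 and 12.5 CPM. Slc26a4 stood lower in them, at 341 and 367 against 678 and 630 CPM, and so did Hmx2, at 197 and 153 against 426 and 294 CPM. Both genes were also lower in deeper members as a whole. Between members of 20000 to 40000 and of 40000 to 60000 UMIs, Slc26a4 went from 846 to 418 CPM in Cre- and from 637 to 369 CPM in PHDTiEC. The split by Aqp6 was not made within depth classes, so it does not set Aqp6 apart from depth. Type A genes thus occurred together in the same deep barcodes, and whether these were doublets, mixed cells or free RNA was not tested. With members restricted to no Slc4a1 and at most 1 Aqp6 UMI, against type A without Slc26a4, Insrr was higher in type B by 6.13 and 5.98 and Slc4a9 by 0.86 and 0.73 on the log2 scale.

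The levels moved with depth in both libraries. From members under 20000 UMIs to those of 60000 to 100000, Slc26a4 went from 1028 to 241 CPM in Cre- and from 1169 to 371 CPM in PHDTiEC, but the gate's UMI minimum on this gene stands for a higher CPM in a shallow member. Of genes outside the gate, Hmx2 went from 963 to 136 and from 565 to 186 CPM and Insrr from 124 to 54.1 and from 171 to 73.5 CPM. Slc4a8 was higher in the deepest class, from 13.5 to 25.8 and from 10.3 to 22.3 CPM, on 5 UMIs in the shallowest class of each library. Hsd11b2, the cortisol-inactivating enzyme of the aldosterone-sensitive tubule, went the other way, from 164 to 1584 CPM in Cre- and from 944 to 1841 CPM in PHDTiEC. Fxyd4, a regulator of the sodium pump in collecting duct, was likewise higher in deeper members, from 24.2 to 706 and from 254 to 855 CPM. The deepest members thus had less Hmx2 and Insrr and more Hsd11b2 and Fxyd4 per UMI, and differences between the libraries are given below also within depth classes.

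**Figure D3:**
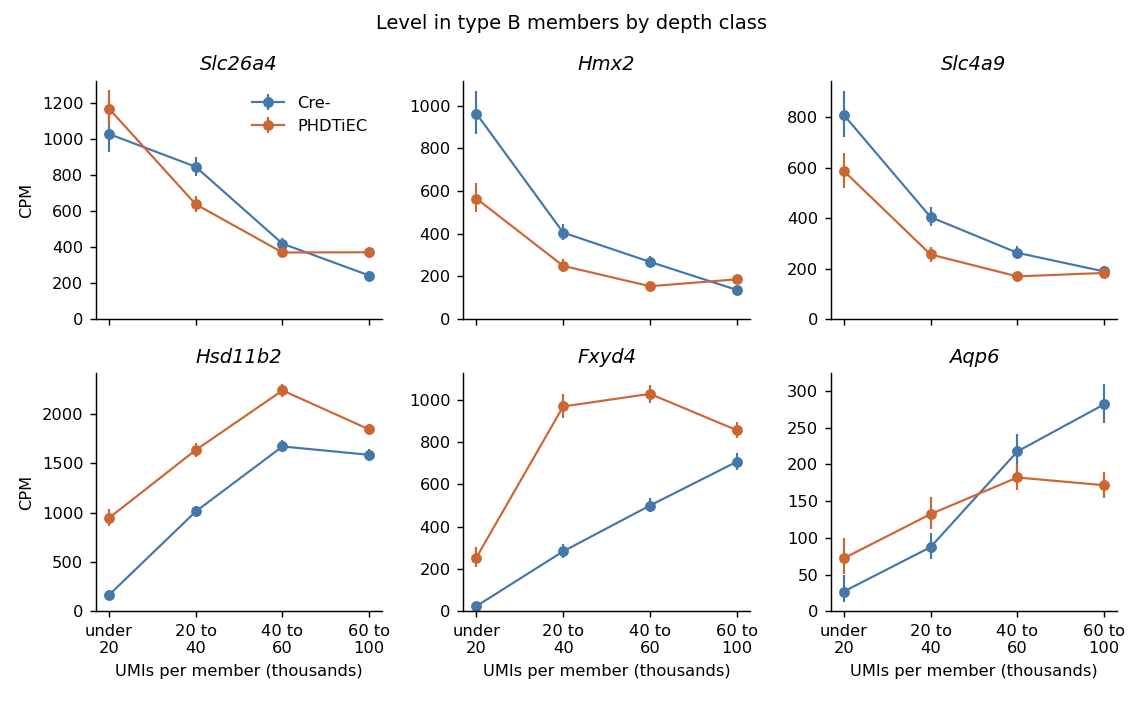
Level of 6 genes in type B members of each depth class (x axis, UMIs per member) as CPM of the summed UMIs (y axis, from 0), with 95% Poisson intervals; blue is Cre- (28, 36, 35 and 23 members) and orange is PHDTiEC (37, 39, 41 and 30 members). In both libraries Slc26a4, Hmx2 and Slc4a9 are lower, and Hsd11b2, Fxyd4 and Aqp6 higher, in the deepest class than in the shallowest.

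The share of type B cells differed between the libraries by less than the counting error. Members made up 1.54% (1.28 to 1.83, Clopper-Pearson) of kept barcodes in Cre- and 1.70% (1.44 to 1.99) in PHDTiEC, a ratio of 1.11 with a counting interval of 0.864 to 1.42. Barcodes that passed the type A gate made up 0.768% (0.588 to 0.986) and 0.347% (0.234 to 0.495). The 104 and 91 intercalated barcodes in neither class made up 1.31% (1.07 to 1.58) and 1.05% (0.848 to 1.29). Type B cells were thus 66.7% (59.3 to 73.4) of type A plus type B barcodes in Cre- and 83.1% (76.7 to 88.3) in PHDTiEC, a difference of 16.4 percentage points (7.09 to 25.4). This difference was 9.31 points when barcodes with Ptprc UMIs were counted in both classes, and 14.5 to 19.7 points under the other gates tried. Of all intercalated barcodes, type B made up 42.5% (36.7 to 48.5) in Cre- and 54.9% (48.7 to 60.9) in PHDTiEC. The barcodes in neither class held Aqp6 at 413 and 291 CPM and Dmrt2 at 176 and 132 CPM. Their Slc4a1 stood at 9.09 and 6.94 CPM and their Slc26a4 at 6.06 and 6.55 CPM. How many of them were type A cells below the Slc4a1 minimum was not tested. Shares after dissociation also depend on which cells survived it, which was not tested.

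The comparison between genotypes addresses whether loss of endothelial oxygen sensing after injury goes with a different state of these epithelial cells. Over both libraries together 10516 genes reached 50 UMIs in the members, and of these 168 (1.6%) differed more than 2-fold. In PHDTiEC members 82 were more than 2-fold higher (0.78% of genes) and 86 more than 2-fold lower (0.818%), with a median log2 ratio of 0.08. Whatever their size, 6504 of the 10516 ratios were above 0 and 4012 below, against which the counts of higher and lower genes in each list below are to be read. With edgeR's TMM scaling the split was 62 higher and 108 lower, and 66 and 105 without mitochondrial genes in the total. Most transport and identity genes lay well within 2-fold, while carbonic anhydrases and osteopontin were lower and Hes1, Cdkn1a and Klk1 were higher in PHDTiEC.

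Carbonic anhydrases, which interconvert carbon dioxide and bicarbonate, gave the largest difference among the transport genes that passed the minimum. Car15 (ENSMUSG00000090236, chromosome 16, 17835276 to 17838364), a membrane-bound form, was 654 CPM in Cre- and 293 CPM in PHDTiEC (log2 ratio -1.16, -1.24 to -1.07). Its member values ran from 0 through a median of 380 to 8111 CPM in Cre- and from 0 through 103 to 8710 CPM in PHDTiEC. The ranges overlapped wholly while the medians stood apart. In members under 20000 UMIs Car15 was higher in PHDTiEC, by 0.59, and it was lower in the 3 deeper classes. Car2 (ENSMUSG00000027562, chromosome 3, 14886273 to 14900770), the cytosolic form of intercalated cells, was 987 and 540 CPM (-0.87, -0.94 to -0.81). The median member had 877 CPM of Car2 in Cre- and 455 in PHDTiEC, with highest members of 10221 and 5339, and the ratio was below 0 in 4 of 4 depth classes (-0.97 to -0.71). Car12, a further membrane form, was 595 and 408 CPM (-0.54), also lower in 4 of 4 depth classes. In type A cells the log2 ratios were -1.19 for Car2, -0.28 for Car15 and -0.22 for Car12, and over all other kept barcodes they were -0.56, -0.46 and -0.42, so lower values were not particular to type B cells.

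Of 18 genes of bicarbonate, chloride and ammonia transport, 15 had 50 UMIs or more, and 1 of these (Car15) was past 2-fold. Their median log2 ratio was -0.15. Slc4a9 was 314 CPM in Cre- and 225 CPM in PHDTiEC (-0.48, -0.59 to -0.37), with member medians of 306 and 194 CPM and lower values in 4 of 4 depth classes, and its ratio was -0.50 in type A and -0.47 over all other kept barcodes. Bsnd, encoding barttin, was 70.1 and 63.1 CPM (-0.15). The ammonia transporters Rhbg and Rhcg were 166 and 139 CPM (-0.25) and 233 and 241 CPM (0.05). Slc4a2, another anion exchanger, was 70.1 and 74.1 CPM (0.08), and Slc12a7, a potassium-chloride cotransporter, 22.5 and 23.2 CPM (0.04). Apart from Slc4a9 and the carbonic anhydrases, the members shown here differed by less than 0.3 on the log2 scale.

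Among 8 type B identity genes, 7 passed the minimum, none was past 2-fold, and 5 were lower and 2 higher in PHDTiEC. Hmx2 was 311 and 218 CPM (-0.51, -0.62 to -0.41), yet the member medians were 190 and 177 CPM and members of 60000 UMIs or more had the higher level in PHDTiEC. Insrr was 90.6 and 82.8 CPM (-0.13, -0.32 to 0.06), Spink8 707 and 754 CPM (0.09) and Slc4a8 20.5 and 23.9 CPM (0.22). Sctr, the secretin receptor gene, stayed under the minimum with 30 and 8 UMIs. The 6 type A identity genes that passed all had lower summed levels in PHDTiEC members (median -0.24), none past 2-fold and 4 with an interval below 0. The same list had medians of -0.47 in type A and -0.29 over all other kept barcodes, so lower values were not particular to type B cells. In the members Aqp6 was 193 and 160 CPM and Atp6v0d2, a pump subunit, 456 and 330 CPM. The direction was not uniform, since Aqp6 and Kit were each higher in PHDTiEC in 2 of 4 depth classes. Aqp6 was seen in 41.8% and 50.3% of members, and the gate gene Slc4a1 was 28.5 and 34.3 CPM.

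Proton pump genes differed little in size but were more often lower in PHDTiEC. Of 23 V-ATPase genes, 22 passed the minimum, 16 were lower and 6 higher, with a median of -0.11. The interval lay below 0 for 12 of the 22 and above 0 for 3, where 922 and 2133 of 10516 genes did so. These counts were not matched for level, and an interval leaves out 0 more easily for a gene with more UMIs. The list median was -0.14 in type A, 0.06 in principal cells and -0.01 over all other kept barcodes. In the members the summed level of the list was 9763 and 8780 CPM (-0.15, -0.17 to -0.14), and the lowest ratio was that of Atp6v0d2 (-0.47). The catalytic subunit gene Atp6v1a was 1038 and 1036 CPM (0.00, -0.06 to 0.05), and Atp6v1b1, whose subunit is typical of intercalated cells, 244 and 235 CPM (-0.05). The gate gene Atp6v1g3 was 3054 and 2661 CPM (-0.20). The only member past 2-fold was Atp6v1g2, on 18 and 45 UMIs.

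Notch signalling separates principal from intercalated fate in the collecting duct, and Hes1 is its classical repressor target. Hes1 (ENSMUSG00000022528, chromosome 16, 30064384 to 30067796) was 562 CPM in Cre- and 1026 CPM in PHDTiEC (0.87, 0.80 to 0.93). Member values ran from 0 through a median of 421 to 2208 CPM in Cre-, and from 0 through 934 to 2897 CPM in PHDTiEC. The medians stood more than 2-fold apart within overlapping ranges, and Hes1 was higher in 4 of 4 depth classes (0.69 to 1.10). Hes1 was also higher in PHDTiEC by 1.04 in type A and by 0.50 over all other kept barcodes. Notch2 was 23.0 and 35.3 CPM (0.62, 0.28 to 0.97), whereas the ligands Jag1 (74.9 and 77.9 CPM, 0.06) and Dll1 (24.4 and 25.1 CPM, 0.04) and the receptor Notch1 (0.10) were close. Mecom, a zinc finger factor, was 212 and 302 CPM (0.51) and Dnmt3a, a DNA methyltransferase, 58.7 and 78.4 CPM (0.42). Foxi1, a gate gene, was 357 and 300 CPM (-0.25) and Tfcp2l1, which acts with it in intercalated cells, 922 and 864 CPM (-0.09). Of the 13 genes of this list that passed, 8 were higher, 5 lower and none past 2-fold, with a median of 0.06.

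**Figure D4:**
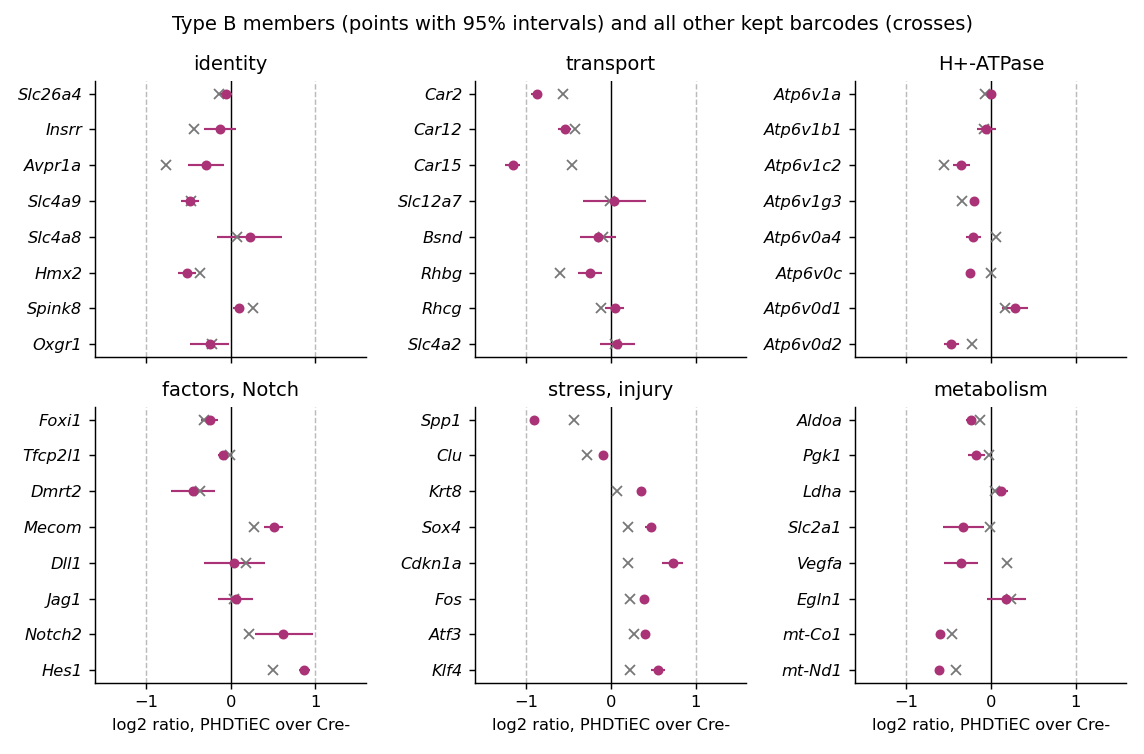
Log2 ratio of PHDTiEC over Cre- (x axis, dashed lines at 2-fold) for 48 genes in 6 groups; purple points with 95% counting intervals are type B members and grey crosses are all other kept barcodes. Car15 alone lies past the lower 2-fold line, Car2 and Spp1 lie near it, and Hes1, Cdkn1a and Notch2 lie farthest to the right.

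Receptors and kinases were mostly close. Of 14, 12 passed the minimum, with a median of -0.13 and none past 2-fold. Avpr1a was 78.6 and 64.3 CPM (-0.29, -0.50 to -0.08), Oxgr1, the α-ketoglutarate receptor, 63.1 and 53.2 CPM (-0.25), and P2ry14, a receptor for UDP-sugars that is known for inflammatory signalling in intercalated cells, 69.1 and 44.3 CPM (-0.64). Nr3c2, the mineralocorticoid receptor, was 37.6 and 33.8 CPM (-0.15), and Stk39, the kinase SPAK, 86.7 and 110 CPM (0.34). The genes linked with conversion of type B into type A cells gave no common direction past 2-fold. Dmbt1 (hensin) was at 0 UMIs in both libraries, which allows up to 3 UMIs in either summed class, Lgals3 (galectin-3) was 900 and 869 CPM (-0.05), and Itgb1 (integrin β1) was 181 and 226 CPM (0.32).

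Among injury genes, osteopontin stood out by level. Spp1 (ENSMUSG00000029304, chromosome 5, 104435118 to 104441050), a secreted matrix phosphoprotein of injured and distal tubules, was 16542 CPM in Cre- and 8828 CPM in PHDTiEC (-0.91, -0.92 to -0.89). Its member values ran from 62.6 through a median of 13601 to 115802 CPM in Cre- and from 467 through 5760 to 106936 CPM in PHDTiEC. Spp1 was lower in 4 of 4 depth classes (-1.17 to -0.62), and lower also in type A (-0.59) and over all other kept barcodes (-0.43). Cdkn1a, the cell cycle inhibitor p21, was higher, at 177 and 294 CPM (0.73, 0.61 to 0.85), with member medians of 98.2 and 227 CPM and higher values in 4 of 4 depth classes. Its ratio was 0.77 in type A and 0.20 over all other kept barcodes. Sox4 (587 and 813 CPM, 0.47), Krt8 (813 and 1045 CPM, 0.36) and Krt19 (105 and 147 CPM, 0.49) were higher, and Clu (clusterin) was 7626 and 7152 CPM (-0.09). Of 16 tubular injury genes 15 passed, 10 higher and 5 lower, a split near that of all genes, with a median of 0.23. The only gene past 2-fold, Mmp7 (70 and 39 UMIs), took 68.6% and 53.8% of its UMIs from 1 cell in each library, and its ratio turned from -1.14 to 0.66 under a stricter gate.

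Immediate early genes, which dissociation can also induce, had 16 of 18 ratios above 0, where 6504 of 10516 were so over all genes, with a median of 0.26 against 0.08 and none past 2-fold. Fos was 3362 and 4400 CPM (0.39), Jund 1378 and 1896 CPM (0.46), Atf3 1419 and 1881 CPM (0.41) and Klf4 381 and 560 CPM (0.56). Klf4 was higher in 4 of 4 depth classes, with member medians of 200 and 462 CPM. The same list had medians of 0.21 in type A and 0.14 over all other kept barcodes, and the part of handling in it was not tested.

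Intercalated cells are known for innate defence, and these genes went both ways. Of 14, 12 passed the minimum, 6 higher and 6 lower, with a median of -0.05. Wfdc2, an antiprotease, was 1983 and 2578 CPM (0.38), Defb1, a defensin, 1678 and 1360 CPM (-0.30), and Lcn2 (NGAL) 965 and 1199 CPM (0.31) with 14.5% and 22.6% of its UMIs in 1 cell. C3 was 147 and 66.1 CPM (-1.15), again with 24.7% and 40.7% in 1 cell. The direction of C3 was not stable: its ratio was 1.10 in members of 20000 to 40000 UMIs and 0.22 without the members of highest doublet score. Of 20 NF-kB and TNF response genes 18 passed, 13 lower and 5 higher, with a median of -0.24 and none past 2-fold. Cxcl10 was 59.8 and 30.1 CPM (-0.99), Vcam1 55.4 and 35.3 CPM (-0.65) and Ier3 544 and 740 CPM (0.44). Interferon-induced genes had a median of -0.30 over 13 genes, against 0.21 in type A. Ifit3 was past 2-fold lower, on 69 and 26 UMIs, and 1 Cre- cell held 63.8% of those 69.

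Targets of hypoxia-inducible factor (HIF) were not shifted together in these cells, in which the floxed genes are not targeted. The UMIs of Egln1, Egln2 and Egln3, which encode PHD2, PHD1 and PHD3, come from transcript 3′ ends and so check no deletion. In type B members Egln1 was 56.0 and 63.4 CPM (0.18, -0.05 to 0.41), Egln2 53.4 and 59.9 CPM (0.17), and Egln3 had 16 and 13 UMIs. Of 24 HIF targets 18 passed the minimum, 8 higher and 10 lower, with a median of -0.10 and none past 2-fold. Vegfa was 87.1 and 68.2 CPM (-0.35, -0.55 to -0.15), Bhlhe40 393 and 463 CPM (0.24) and Cited2 154 and 219 CPM (0.51), while Car9 was at 0 UMIs in both. Of 10 glycolysis genes named by the study 9 passed, 7 lower and 2 higher (median -0.21), with Aldoa at 1137 and 967 CPM (-0.23), Slc2a1 (GLUT1) at 58.1 and 46.5 CPM (-0.32) and Ldha at 458 and 499 CPM (0.12).

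All 13 mitochondrially encoded genes were lower in PHDTiEC members, with a median of -0.60 and a summed level of 92289 and 59385 CPM. mt-Co1 had member medians of 14153 and 10292 CPM and was lower in 4 of 4 depth classes. The same list was lower in type A (median -0.56) and over all other kept barcodes (-0.42), so it followed the library, and the part of cell quality in it was not tested.

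By size alone, the highest ratios among well-detected genes belonged to Fxyd3 (1.77, 21 and 88 UMIs), Fam177a (1.74), Ccnd2 (1.48), Ubtd2 (1.40) and Bok (1.27). Ccnd2, encoding cyclin D2, was seen in 16.4% and 29.3% of members and stood at 11.6 and 32.3 CPM. Bok, a BCL2 family gene, was seen in 21.3% and 48.3% of members at 13.4 and 32.5 CPM. Timp2, an inhibitor of matrix metalloproteinases, was 42.4 and 96.6 CPM (1.19, 0.96 to 1.43), seen in 38.5% and 64.6% of members and higher in 4 of 4 depth classes. Pitpnm3 (1.23), B930036N10Rik (1.21) and 9330020H09Rik (1.19) completed the highest together with Klk1. With members limited to fewer than 3 Hsd11b2 UMIs, B930036N10Rik turned to -1.48 and 9330020H09Rik to -0.48. The other classes also gave ratios above 0 for most of these genes. Ccnd2 stood at 3.61 in type A, on 4 UMIs in Cre-, at 1.43 in other intercalated barcodes and at -0.07 in principal cells, Bok at 1.76, 0.94 and 1.25, and Timp2 at 1.48, 1.18 and 0.39. Over all other kept barcodes the 3 ratios were 0.52, 0.46 and 0.31.

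The lowest ratios mixed genes spread over members with genes of proximal tubule. Fetub, encoding fetuin-B, was 42.4 and 16.5 CPM (-1.36, -1.72 to -1.01) and was seen in 54.9% and 37.4% of members. Acot3, an acyl-CoA thioesterase, was 28.7 and 9.93 CPM (-1.53) in 47.5% and 24.5% of members. Over all other kept barcodes Fetub was at -0.80 and Acot3 at -0.55. AY036118, a transcript that lies antisense within the ribosomal RNA-derived Gm42418 locus, was 79.6 and 26.9 CPM (-1.56) in 77.9% and 49.7% of members, and it was also lower in type A (-0.96), other intercalated (-1.14), principal (-1.15) and all other kept barcodes (-0.85). Fgg (-1.78), Napsa (-1.52) and Egfl7 (-1.40) were seen in fewer. Ugt2b37 (-2.99), Slc13a1 (-1.49) and Cpn1 (-1.47), genes of proximal tubule, were seen in 8.16% to 17.01% of members. Without members holding 3 or more UMIs of proximal tubule markers, Slc13a1 turned to 2.87 and Cpn1 to 1.48, so these values rested on few barcodes, and Egfl7 turned to 0.11 with fewer than 3 Hsd11b2 UMIs.

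Genes of neighbouring tubule cells were frequent in the members. The summed levels of principal cell and of connecting tubule markers were higher in PHDTiEC, the latter mainly through Klk1. Klk1 (ENSMUSG00000063903, chromosome 7, 44225360 to 44229618), tissue kallikrein, a product of connecting tubule, was 1379 CPM in Cre- and 3264 CPM in PHDTiEC (1.24). Its member values ran from 0 through a median of 62.8 to 13555 CPM in Cre- and from 0 through 473 to 24241 CPM in PHDTiEC, and it was higher in 4 of 4 depth classes. Outside type B the ratio of Klk1 was 4.74 in type A, 1.09 over all other kept barcodes, -0.41 in other intercalated barcodes and -0.40 in principal cells. Fxyd4 was 480 and 890 CPM (0.89), and Hsd11b2 was seen in 92 of 122 and 127 of 147 members (0.45). Calb1, a calcium-binding protein of connecting tubule, was lower (-0.97, and -1.04 over all other kept barcodes), and S100g, another, was 3966 and 4190 CPM (0.08). The 11 principal cell markers were all detected, in 118 and 146 members, and summed to 3043 and 4150 CPM, with 9 of 11 higher in PHDTiEC and a median of 0.22. Of the 5 connecting tubule markers 3 were higher and 2 lower in PHDTiEC, and the rise of their sum was close to that of Klk1 alone. They summed to 6300 and 8136 CPM in 115 and 144 members. Whether these UMIs were the cells' own, came from attached neighbours or were free RNA was not tested, and with members limited to fewer than 3 Hsd11b2 UMIs (41 and 30 cells) Hes1, Car2, Spp1, Klk1 and Cdkn1a kept their direction.

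Markers of more distant cells were also detected, and some of their sums differed between the libraries beyond the counting interval. The 7 proximal tubule markers summed to 142 and 99.5 CPM (-0.52, -0.68 to -0.36), with 90.9% and 81.2% of these UMIs in 10 members. Thick ascending limb markers summed to 697 and 563 CPM (-0.31, -0.38 to -0.24) and distal convoluted tubule markers to 89.1 and 84.8 CPM with Pvalb at 0. Macrophage markers summed to 395 and 386 CPM, neutrophil and lymphocyte markers to 12.2 and 18.2 CPM (0.57, 0.10 to 1.06) with Ms4a1 at 0 in both, and erythroid markers to 2.48 and 1.68 CPM with Hba-a2 at 0. Of the 108 neutrophil and lymphocyte UMIs in PHDTiEC, 26 came from 1 member, so that difference rested largely on 1 barcode. Endothelial markers, of the cell type in which the genes were deleted, summed to 16.3 and 13.3 CPM in 11 and 26 members. Fibroblast and mural markers summed to 122 and 139 CPM (0.19, 0.04 to 0.35), mostly Dcn, at 76.7 and 95.1 CPM. The 7 cycling genes summed to 76.9 and 107 CPM (0.47, 0.29 to 0.66).

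**Figure D5:**
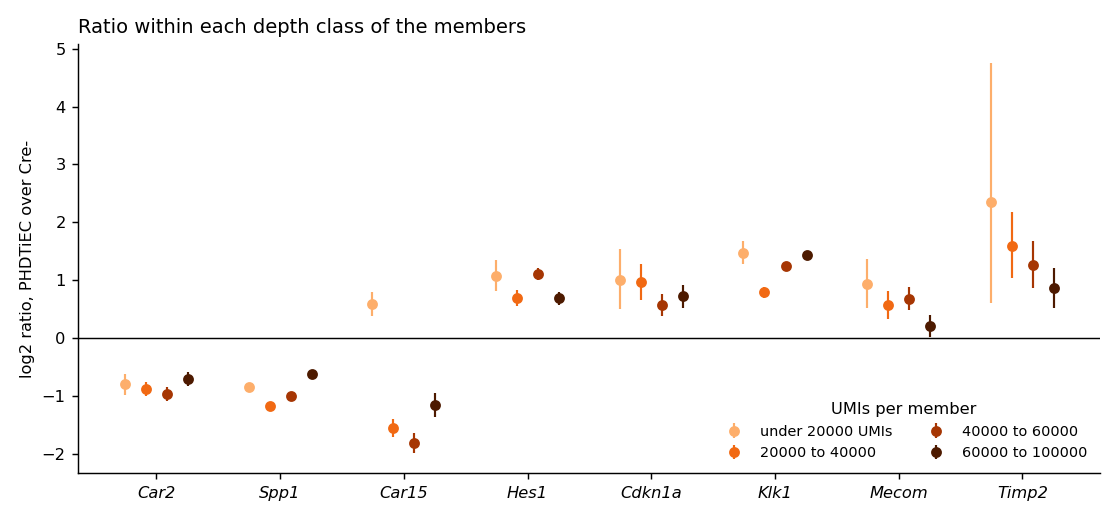
Log2 ratio of PHDTiEC over Cre- (y axis) for 8 genes within 4 depth classes of the type B members, from under 20000 UMIs (light) to 60000 to 100000 UMIs (dark), with 95% counting intervals. Car2 and Spp1 lie below 0 and Hes1, Cdkn1a, Klk1, Mecom and Timp2 above 0 in all 4 classes, while Car15 lies above 0 in the shallowest class and below 0 in the other 3.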

How the data were processed

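Single-cell suspensions of injured kidneys were run on Chromium 3′ v3.1 chemistry. The authors deposited unfiltered UMI counts per gene and barcode (32285 genes, 6794880 barcodes listed per library), made with Cell Ranger (version 4 per the file headers) against mm10. The counts were used as deposited: no doublet removal, batch correction or clustering, and no annotation of the cells was used. Barcodes were kept and gated by the rules in the text. UMIs were summed over members per library and expressed per 1000000 UMIs (CPM). The log2 ratio of PHDTiEC over Cre- carries a Clopper-Pearson interval of the split of UMIs, levels carry exact Poisson intervals and shares exact binomial ones. All cover counting error only, at 95%. A gene was compared with at least 50 UMIs over both libraries, and a difference is described as past 2-fold without any test.

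The members and the gene lists were chosen with earlier results of these data known. Genes are named as gate genes, as genes of 28 lists, or by size: the 10 highest and 10 lowest ratios (for type B over type A the 15 highest and 10 lowest) among genes with at least 100 UMIs, seen in at least 10% of members and with at most 25% of their UMIs in 1 cell. Mitochondrial, ribosomal protein, haemoglobin and sex-linked genes and the ribosomal RNA-derived Gm42418 and Gm26917 were not named by size, and 2 genes that the rule covers are not reported here. Alternatives covered the gates, scaling, depth, free RNA (the profile of barcodes under 100 UMIs) and doublets (Scrublet in Scanpy 1.11.5). Tools were Python 3.11.15, NumPy 2.4.6, SciPy 1.17.1, pandas 2.3.3 and, for TMM factors, edgeR 4.0.16 in R 4.3.3. The calculation was tested on simulated counts. Promoter sequences are from RefSeq.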

Additional observations from a re-analysis of the deposited data

Results flagged for a closer look

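For 11 named genes the level in type B relative to type A lay on opposite sides of 0 in the libraries, with neither counting interval reaching 0. The difference between libraries was not tested, since each is 1 mouse, and the type A classes were small (61 and 30 cells). All values are log2 ratios of type B over type A, Cre- first and PHDTiEC second.

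Klk1 stood at 3.30 and -0.19. In type A cells it was 140 and 3733 CPM, with 38.4% and 35.4% of the UMIs in 1 cell. Other genes of neighbouring tubule cells with such a reversal were Fxyd4 at -0.46 and 0.19, S100g at -0.13 and 0.20, Slc12a3 at -0.64 and 1.23, with 76.6% of the Cre- type A UMIs in 1 cell, and Slc34a1 at -0.34 and 0.90, with 62.5% of the PHDTiEC type A UMIs in 1 cell. Rgs5, a mural cell gene, stood at 3.13 and -1.52, and all 33 of its UMIs in PHDTiEC type A came from 1 cell.

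Avpr1a stood at -0.43 and 0.79. It was seen in 54 of 61 and 18 of 30 type A cells, so this reversal was spread over cells. Jund stood at -0.087 and 0.19 and Krt8 at 0.23 and -0.18. Cxcl10 stood at 0.59 and -0.61, with 46.5% and 63.8% of the type A UMIs in 1 cell, and Isg15 at 0.79 and -1.06, with 50% and 40.7%.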

How the results depend on the processing

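No paired analysis was possible because each genotype is 1 library. The Scrublet alternative at its own threshold gave no value, since no member was marked; removal of the 8% highest scores was added after seeing the data, as were the settings on members over 50000 UMIs, Slc4a1 and Aqp6, Hsd11b2, Ptprc and proximal tubule markers. The ratio of type B shares, 1.11, was 1.01 to 1.17 under all 9 alternatives, and the difference in the share of type A plus type B, 16.4 points, was 9.31 to 19.7. Counts of genes past 2-fold moved most with the minimum. At 20 UMIs a gene they were 222 higher and 213 lower in PHDTiEC (82 and 86 at 50), and 150 and 53 for type B over type A (79 and 23). Higher counts were 142 as the mean over cells and 151 without members over 50000 UMIs. Lower counts were 16 with members thinned to 5000 UMIs, 44 without proximal tubule members and 44 without the highest Scrublet scores. For type B over type A, lower counts were 44 as the mean over cells, 14 without members with Aqp2 at 3 or more and 41 with no Slc4a1 and Aqp6 at 0 or 1. Reversed were Mmp7 (0.66, stricter gate), B930036N10Rik (-1.48), 9330020H09Rik (-0.48) and Egfl7 (0.11) with fewer than 3 Hsd11b2 UMIs, Slc13a1 (2.87) and Cpn1 (1.48) without proximal tubule members, and C3 (0.22), Slc13a1 (2.79), Cpn1 (1.64) and Egfl7 (0.081) without the highest Scrublet scores. Over 14 alternatives Car2 ranged from -1.03 to -0.35, Car15 from -1.26 to -0.30, Spp1 from -1.06 to -0.66, Hes1 from 0.71 to 1.10, Cdkn1a from 0.29 to 0.96, Klk1 from 0.59 to 1.93, Slc4a9 from -0.61 to -0.05, Slc26a4 from -0.14 to 0.08 and the median of HIF targets from -0.24 to 0.21. Counting intervals are wide for genes near 50 UMIs, and comparisons with type A rest on 30 cells in PHDTiEC.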
